A study of Mus musculus with 15 samples.

Results

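The genes described here are receptors, ligands and target genes of the Notch pathway, measured in fibroblasts sorted from mouse kidney after injury. They were chosen by name: Notch1, Notch2 and Notch3 as receptors, Jag1, Jag2 and Dll1 as ligands, and Hes1, Hey1 and Heyl as targets. A gene was measured where a probe set of the array was annotated to it alone, and of several such probe sets the brightest on average over the 15 arrays was used. Of the 9 genes 8 were measured, and all 8 passed the filter on dim genes, among 13523 genes tested of 17097 measured. Jag2 was not analysed here. The cells were PDGFRa-positive fibroblasts from kidneys of adult C57BL/6 mice, sorted by flow cytometry. The arrays carry running numbers in the labels. Arrays 1 to 3 hold cells taken at day 3 after folic acid, which injures tubule epithelium and causes acute kidney injury, arrays 4 to 6 at day 7 and arrays 7 to 9 at day 14. Arrays 10 to 12 hold cells from day 14 of unilateral ureteral obstruction (UUO), in which a tied ureter leads to progressive fibrosis, and arrays 13 to 15 hold cells from uninjured kidney. The uninjured mice carry no day or vehicle in the labels, no group carries a transgene there, and nothing says how many animals went into an array.

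Notch receptors span the cell membrane and are activated by ligands of the Jagged and Delta-like families on a neighbouring cell. Ligand binding exposes the receptor to the protease ADAM10 and then to gamma-secretase, which frees the intracellular domain. That domain enters the nucleus, binds the DNA-binding protein RBPJ and turns on repressors of the Hes and Hey families. In mouse, Notch3 is best known from vascular smooth muscle and pericytes, and Notch1 and Notch2 act in many cell types, among them endothelium and nephron epithelium.

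The 250 bases before the transcription start of 3 of these genes are shown because the genes passed the test after folic acid, 1 of them upwards and 2 downwards, and differ in a motif. The sequences are from RefSeq on build GRCm38.p6, are written 5′ to 3′ on the gene's strand, and have the GC box GGGCGG, or its reverse complement CCGCCC, in capitals.
Notch3, chr17:32166891-32167140, minus strand: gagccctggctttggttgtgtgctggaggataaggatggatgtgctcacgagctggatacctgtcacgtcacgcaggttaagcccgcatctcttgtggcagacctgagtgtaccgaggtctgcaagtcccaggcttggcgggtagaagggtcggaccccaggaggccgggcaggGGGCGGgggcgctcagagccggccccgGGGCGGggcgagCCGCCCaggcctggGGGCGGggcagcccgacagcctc
Notch1, chr2:26503823-26504072, minus strand: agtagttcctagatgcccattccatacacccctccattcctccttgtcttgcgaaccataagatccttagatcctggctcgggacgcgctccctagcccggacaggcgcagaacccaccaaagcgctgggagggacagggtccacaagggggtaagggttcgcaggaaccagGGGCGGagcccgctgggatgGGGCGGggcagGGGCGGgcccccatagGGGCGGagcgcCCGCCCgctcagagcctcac
Dll1, chr17:15375824-15376073, minus strand: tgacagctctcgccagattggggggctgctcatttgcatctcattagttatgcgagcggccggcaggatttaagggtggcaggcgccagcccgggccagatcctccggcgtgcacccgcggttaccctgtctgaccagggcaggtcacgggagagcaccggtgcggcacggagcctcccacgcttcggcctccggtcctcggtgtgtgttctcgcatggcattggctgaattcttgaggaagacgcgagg

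The Notch3 window was 68.8% G and C and held 4 GC boxes, the Notch1 window was 66.0% G and C and held 5, and the Dll1 window was 64.0% G and C and held 0. Over the 9 genes, 6 had a promoter in the table, with 7 windows because Dll1 had a pair of starts. The GC box, a motif added after the sequences were seen, was found on either strand in 4 of the 7 windows and in 32.7% of 32851 mouse promoter windows of the same length. The motif TGGGAA, the core of RBPJ sites, was in 0 of the 7 windows, and in 21.6% of all windows. The longer forms GTGGGAA, which contains that core, and GTGAGAA were also in 0 of the 7, and in 5.42% and 3.83% of all windows. Hes1, Hey1 and Heyl are named only.

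Values are log2 intensities, so a difference of 1 is a doubling. They allow a probe set to be compared between arrays and not with another probe set. The array medians lay between 4.93 and 5.06, and the 40th percentile used by the filter lay between 4.54 and 4.69. The labelled cell type was checked against marker genes. Pdgfra, the receptor used for the sort, measured 6.76, 6.11 and 7.20 at folic acid day 3, 4.96, 4.89 and 6.65 at day 7, 5.00, 4.25 and 6.60 at day 14, 6.54, 5.71 and 5.71 in UUO and 6.43, 5.68 and 5.91 in uninjured kidney. It was thus dimmest on arrays 4, 5, 7 and 8. Proximal tubule transcripts were bright on some arrays: the mean of 10 marker genes lay between 6.74 and 6.86 at folic acid day 3, between 5.88 and 8.33 at day 7, between 7.31 and 9.26 at day 14, between 5.74 and 6.17 in UUO and between 8.41 and 9.54 in uninjured kidney. The mean of 10 fibroblast markers was 8.14 ± 0.24, 8.06 ± 0.32 and 7.63 ± 0.64 on the 3 folic acid days, 8.86 ± 0.08 in UUO and 5.69 ± 0.32 in uninjured kidney (SD, n = 3 arrays each). The uninjured arrays therefore held more tubule transcript and less of the fibroblast markers as a set than the UUO arrays. Of the 10 fibroblast markers 7 were called higher in UUO, such as Col1a1, with means of 6.81 in uninjured kidney and 12.23 in UUO. Pdgfra (6.01 and 5.99), Pdgfrb (9.53 and 9.70) and Gli1 (4.78 and 4.59) differed little. In such bulk samples fewer cells of a type and less RNA per cell cannot be told apart.

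At folic acid day 3 the target Heyl and the receptor Notch3 rose, and the receptor Notch1 and the ligand Dll1 fell, so that 4 of the 8 genes passed the test against uninjured kidney. The test was limma's moderated test with Benjamini-Hochberg adjustment over all genes tested, and a gene passed at an adjusted p under 0.05. In that comparison 17.0% of all genes tested passed. At day 7, day 14 and in UUO 0 of the 8 passed, where 11.7%, 5.67% and 16.6% of all genes did. At an unadjusted p under 0.05 limma gave 5 of the 8 for day 3, 3 for day 7, 4 for day 14 and 2 for UUO, where 31.1%, 27.1%, 20.4% and 29.8% of all genes had one. A moderated F test for any difference among the 5 groups called 2 of the 8, Notch3 (adjusted p = 0.00685) and Heyl (adjusted p = 0.00347), and 15.3% of all genes. Median log2 changes of the 8 genes were 0.06, -0.01, -0.20 and -0.35 for day 3, day 7, day 14 and UUO, beside 0.02, 0.01, 0.02 and -0.01 for all genes tested. The 4 comparisons share the 3 uninjured arrays.

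**Figure D1:**
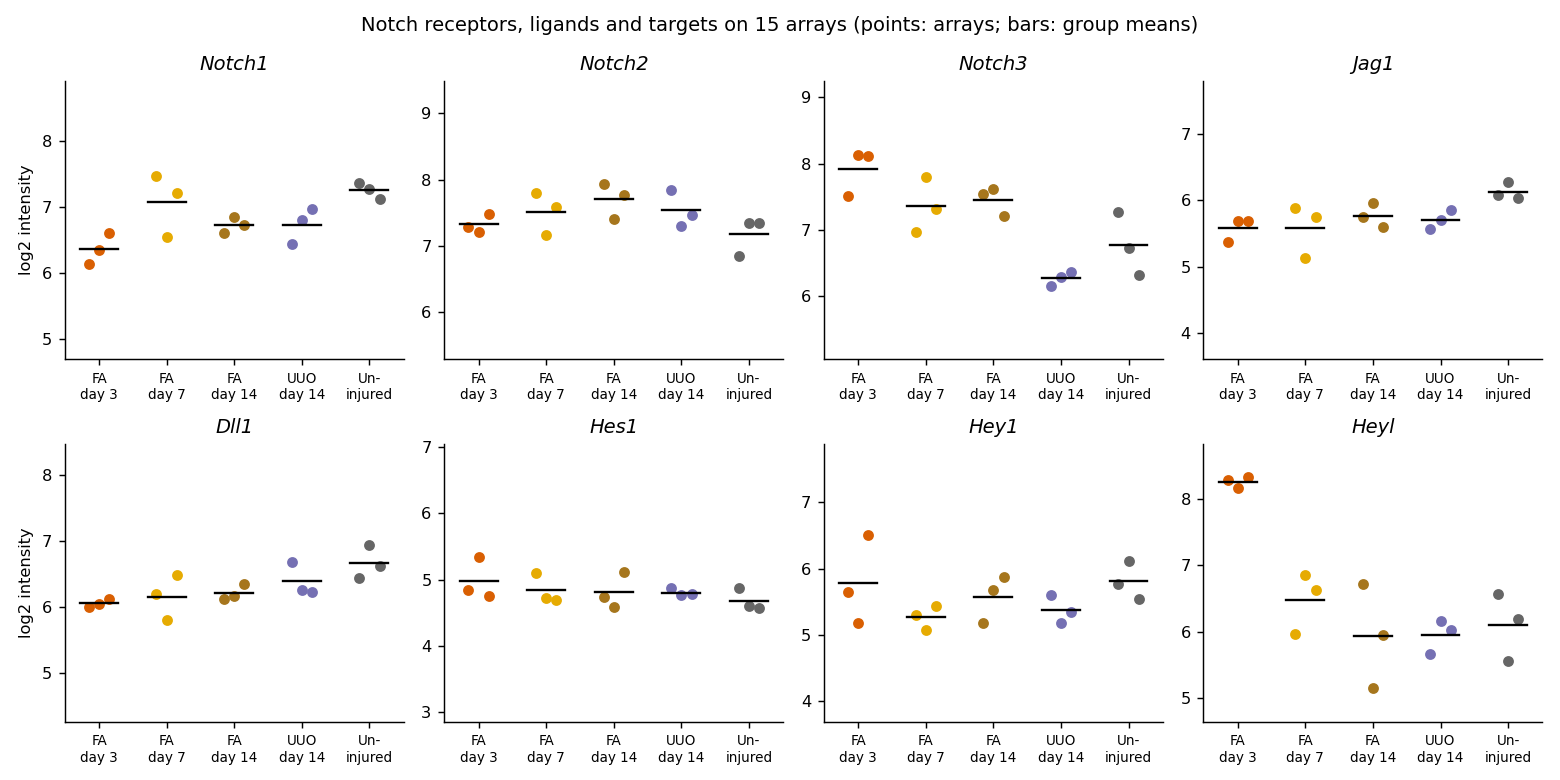
log2 intensity of the 8 measured genes on each array (points) with group means (bars), 3 arrays per group, in the order folic acid (FA) day 3, day 7 and day 14, UUO day 14 and uninjured. All vertical axes span the same number of log2 units, and Heyl at FA day 3, between 8.17 and 8.33, stands above all 12 other arrays.

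Heyl is a transcriptional repressor of the Hey family and is expressed in smooth muscle of vessels. It measured 8.28, 8.17 and 8.33 at folic acid day 3, 5.96, 6.85 and 6.63 at day 7, 6.73, 5.15 and 5.95 at day 14, 5.66, 6.16 and 6.03 in UUO and 6.57, 5.55 and 6.18 in uninjured kidney. The day 3 arrays were the 3 highest of the 15 and overlapped no other group, while the other 4 groups overlapped one another. Heyl was 4.47-fold higher at day 3 than in uninjured kidney, a log2 change of 2.16 (SE 0.37, 95% interval 1.36 to 2.96, adjusted p = 0.00181). It was called on leaving out any 1 array, with an adjusted p of at most 0.0108. The call was lost with the proximal tubule mean in the model, at a log2 change of 1.84 and an adjusted p of 0.065. That model called 848 of all genes tested at day 3, against 2304 without a marker mean. At day 7, day 14 and in UUO the log2 changes of Heyl were 0.38, -0.16 and -0.15, with adjusted p-values of 0.553, 0.856 and 0.831.

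Between the injury groups Heyl was lower at day 14 than at day 3 by a log2 change of -2.32 (SE 0.37, adjusted p = 0.00631), and lower in UUO than at day 3 by -2.31 (SE 0.37, adjusted p = 0.00902). The day 14 call was lost with the proximal tubule mean in the model (-2.05, adjusted p = 0.0886) and in a fit of those 2 groups alone (-2.32, adjusted p = 0.0617). Those fits called 88 and 156 of all genes tested, against 412. At day 7 Heyl was lower than at day 3 by -1.78 (SE 0.37) with an adjusted p of 0.0517, which did not pass, although the 3 arrays of each day did not overlap. That call was made without array 7 (adjusted p = 0.0237) or array 8 (adjusted p = 0.0217). Both are day 14 arrays, so the log2 change stayed at -1.78 and the spread estimated over all groups changed. The highest adjusted p on leaving out 1 array was 0.141. A second probe set of Heyl put this difference at -0.59 (adjusted p = 0.423). On the brightest probe set the mean levels, from highest to lowest, ran 8.26 at day 3, 6.48 at day 7, 6.10 in uninjured kidney, 5.95 in UUO and 5.94 at day 14. No neighbours in that order passed the test.

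Notch3 measured 7.51, 8.14 and 8.12 at folic acid day 3, 6.97, 7.79 and 7.31 at day 7, 7.53, 7.61 and 7.21 at day 14, 6.16, 6.29 and 6.36 in UUO and 7.27, 6.72 and 6.31 in uninjured kidney. Every day 3 array lay above every uninjured array, and the UUO arrays were below all 9 folic acid arrays. The day 3 level was 2.23-fold that of uninjured kidney, a log2 change of 1.16 (SE 0.27, 95% interval 0.58 to 1.74, adjusted p = 0.0106). It stayed called on leaving out any 1 array, with an adjusted p of at most 0.0499. It was lost with a marker mean in the model, at log2 changes of 0.95 with the proximal tubule mean (adjusted p = 0.186) and 1.04 with the macrophage mean (adjusted p = 0.0711). These models called 848 and 1247 of all genes tested at day 3, against 2304 without a marker mean. For Notch3 day 7 and day 14 gave log2 changes of 0.59 and 0.69 (adjusted p = 0.177 and 0.164), and UUO gave -0.50 (adjusted p = 0.234).

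Notch3 was also compared between UUO and folic acid. At day 14 the level was 6.27 ± 0.10 in UUO and 7.45 ± 0.22 after folic acid (SD, n = 3 each), a log2 change of -1.19 (SE 0.27, adjusted p = 0.0352). This call was lost without any of arrays 7, 8, 10, 11, 12 or 14, at adjusted p-values between 0.0568 and 0.107. It was also lost with the mean of probe sets (-0.56, adjusted p = 0.419), a second probe set (0.07, adjusted p = 0.976) or array weights (-1.15, adjusted p = 0.0542). So it was with the proximal tubule mean (-1.45, adjusted p = 0.35) or the macrophage mean (-0.84, adjusted p = 0.611) in the model. Neither mean overlapped between the 2 groups, and these models called 13 and 261 of all genes tested, against 410. They therefore cannot separate the group from the marker level. Without arrays 4, 7 and 8, which leaves 1 array at folic acid day 14, the log2 change of Notch3 was -0.94. Against day 3, UUO was lower by -1.66 (SE 0.27, adjusted p = 0.00908), a call that held without any 1 array (adjusted p of at most 0.0456) and was lost with the second probe set (-2.10, adjusted p = 0.0633). Against day 7 it was lower by -1.09 (adjusted p = 0.149), with no overlap of the arrays. The order of means was 7.92 at day 3, 7.45 at day 14, 7.36 at day 7, 6.77 in uninjured kidney and 6.27 in UUO, and no neighbours differed by the test.

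Over all 6 pairs of injury groups these genes gave 4 calls, 2 of Notch3 and 2 of Heyl. Among all genes tested 3.03% passed for UUO minus day 14, 1.13% for UUO minus day 3, 0.274% for UUO minus day 7, 0.695% for day 7 minus day 3, 0.0518% for day 14 minus day 7 and 3.05% for day 14 minus day 3. For UUO minus day 7, day 7 minus day 3 and day 14 minus day 7 the adjusted count was 0 of 8. At an unadjusted p under 0.05 limma gave 1, 2 and 0 genes there, and 9.12%, 11.1% and 8.83% of all genes. Over the 15 arrays Notch3 and Heyl had a Pearson correlation of 0.651, and of 0.325 after the group means were removed. The arrays share their groups and their mix of cell types, so these values are a description.

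**Figure D2:**
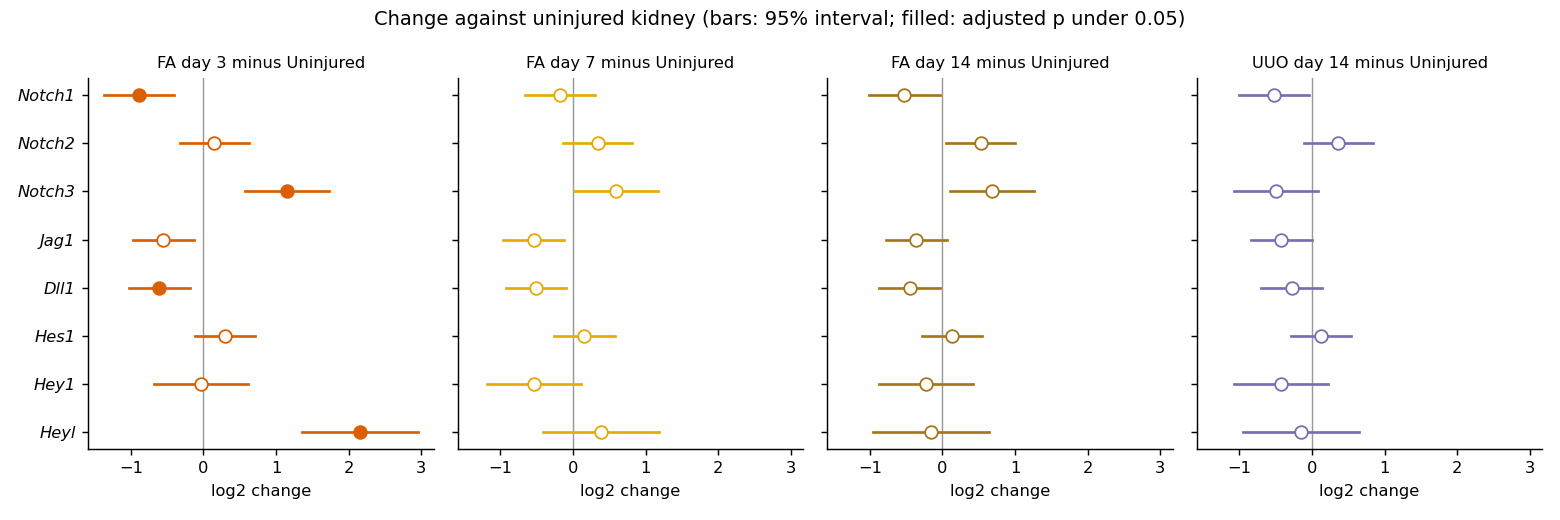
log2 change of each of the 8 genes against uninjured kidney in 4 comparisons, with 95% intervals from limma, filled where the adjusted p was under 0.05. The filled points are Notch1, Notch3, Dll1 and Heyl at FA day 3, and none of the other 3 comparisons has a filled point.

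Notch1, the receptor best known from lymphocytes and endothelium, measured 6.14, 6.35 and 6.61 at folic acid day 3, 7.46, 6.54 and 7.21 at day 7, 6.60, 6.85 and 6.73 at day 14, 6.44, 6.79 and 6.96 in UUO and 7.36, 7.27 and 7.12 in uninjured kidney. The uninjured arrays lay above all arrays of day 3, day 14 and UUO, and overlapped day 7 through arrays 4 and 6. The day 3 level was 0.541-fold that of uninjured kidney, a log2 change of -0.89 (SE 0.22, 95% interval -1.37 to -0.40, adjusted p = 0.0169). Without array 1, 13 or 14 the adjusted p was 0.0683, 0.0561 or 0.0545, and a second probe set gave the opposite sign. The call was also lost with the mean of probe sets (-0.30, adjusted p = 0.46). So it was with the proximal tubule mean (-0.84, adjusted p = 0.17) or the macrophage mean (-0.715, adjusted p = 0.117) in the model. These models called 848 and 1247 of all genes tested at day 3, against 2304 without a marker mean. Changes of Notch1 at day 7, day 14 and in UUO were -0.18, -0.52 and -0.52 (adjusted p = 0.651, 0.206 and 0.138). From lowest to highest, the means were 6.36 at day 3, 6.73 at day 14 and in UUO, 7.07 at day 7 and 7.25 in uninjured kidney, with no called neighbours.

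Notch2, the receptor needed for proximal nephron formation in mouse, measured between 7.21 and 7.49 at day 3, 7.16 and 7.81 at day 7, 7.41 and 7.94 at day 14, 7.30 and 7.85 in UUO and 6.84 and 7.35 in uninjured kidney. Its means were 7.70, 7.54, 7.52, 7.33 and 7.18 in the order day 14, UUO, day 7, day 3 and uninjured, and every group but day 14 overlapped uninjured kidney. The log2 changes against uninjured kidney ran from 0.15 to 0.53, with adjusted p-values from 0.198 to 0.685. The widest 95% bounds over the 4 comparisons were -0.32 and 1.00, so a doubling at day 14 lies at the edge of what the arrays allow.

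Both ligands measured had lower means in every injury group than in uninjured kidney, and 1 of these differences passed the test, that of Dll1 at day 3. Jag1, a ligand of vessel wall and nephron epithelium, measured 5.37, 5.68 and 5.68 at folic acid day 3, 5.89, 5.12 and 5.74 at day 7, 5.74, 5.96 and 5.60 at day 14, 5.57, 5.70 and 5.85 in UUO and 6.08, 6.28 and 6.03 in uninjured kidney. On this probe set all 12 injured arrays, of which the highest was 5.96, lay below the lowest uninjured array. Even so no comparison passed: the log2 changes were -0.55, -0.54, -0.36 and -0.42 for day 3, day 7, day 14 and UUO, with adjusted p-values of 0.0701, 0.0911, 0.328 and 0.167. Without array 5 the day 3 change passed (adjusted p = 0.0259), as did the day 7 change without array 4 (adjusted p = 0.0449). Array 5 is a day 7 array, so the day 3 log2 change stayed at -0.55 and the spread estimated over all groups changed. The highest adjusted p on leaving out 1 array was 0.21 at day 3 and 0.303 at day 7. The injured groups followed one another at 5.77, 5.71, 5.59 and 5.58 in the order day 14, UUO, day 7 and day 3, with SDs of 0.14 to 0.41. A second probe set of Jag1 gave smaller log2 changes, of -0.29, -0.26, -0.05 and -0.02 for day 3, day 7, day 14 and UUO.

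Dll1, a Delta-like ligand, measured 6.00, 6.05 and 6.13 at day 3, 6.20, 5.80 and 6.49 at day 7, 6.13, 6.17 and 6.35 at day 14, 6.68, 6.26 and 6.23 in UUO and 6.45, 6.94 and 6.62 in uninjured kidney. Day 3 and day 14 did not overlap uninjured kidney, and day 7 and UUO did. At day 3 it was 0.656-fold the uninjured level, a log2 change of -0.61 (SE 0.19, 95% interval -1.03 to -0.19, adjusted p = 0.0473). That adjusted p lay just under the threshold and rose above it without any of 11 arrays, among them array 14, at a log2 change of -0.47 and an adjusted p of 0.176. With the proximal tubule or macrophage mean in the model the log2 change was -0.74 or -0.62, and the adjusted p was 0.152 or 0.137. These models called 848 and 1247 of all genes tested at day 3, against 2304 without a marker mean. The adjusted p of Dll1 also rose above the threshold with trend and robust settings (0.0599) and with a stricter filter (0.0518). The changes at day 7, day 14 and in UUO were -0.51, -0.45 and -0.28 (adjusted p = 0.11, 0.204 and 0.366). The means ran upwards through 6.06 at day 3, 6.16 at day 7, 6.22 at day 14, 6.39 in UUO and 6.67 in uninjured kidney, with no called neighbours.

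Hes1 and Hey1, the best known direct targets in many tissues, did not pass in any comparison. Hes1, whose level was near the array medians, measured between 4.75 and 5.34 at day 3, 4.69 and 5.10 at day 7, 4.59 and 5.11 at day 14, 4.76 and 4.87 in UUO and 4.57 and 4.87 in uninjured kidney. Every injury group overlapped uninjured kidney, and the log2 changes ran from 0.12 to 0.30 with adjusted p-values from 0.315 to 0.746. Hey1 measured 5.65, 5.18 and 6.51 at day 3, the widest spread of its groups, and between 5.07 and 5.44 at day 7, 5.18 and 5.87 at day 14, 5.18 and 5.61 in UUO and 5.54 and 6.12 in uninjured kidney. Its log2 changes were -0.03, -0.54, -0.23 and -0.43 for day 3, day 7, day 14 and UUO, with adjusted p-values of 0.963, 0.271, 0.71 and 0.371. The 95% intervals over the 4 comparisons reached from -0.29 to 0.71 for Hes1 and from -1.19 to 0.62 for Hey1. The rise of Heyl at day 3 thus stood beside Hes1 and Hey1 changes of 0.30 (SE 0.19) and -0.03 (SE 0.30), and differences between the 3 targets were not tested.

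The 8 genes were covered by 13 probe sets, and 4 genes had more than 1. For Heyl a second probe set was also higher at day 3 than in uninjured kidney, by a log2 change of 1.07 (adjusted p = 0.0152 over 21225 probe sets tested). It was lower in UUO and at day 14 than at day 3, by -1.25 (adjusted p = 0.0364) and -1.11 (adjusted p = 0.0415). Its day 7 minus day 3 change was -0.59 (adjusted p = 0.423). The other probe set of Heyl, between 5.04 and 5.75 on all arrays, gave 0.21 (adjusted p = 0.414). For Notch3 the second probe set measured 5.28, 7.30 and 5.89 at day 3, 4.53, 3.71 and 3.93 in UUO and 5.53, 5.44 and 4.53 in uninjured kidney. Its change at day 3 was 0.99 (adjusted p = 0.197), the same direction, but on it UUO minus folic acid day 14 was 0.07 (SE 0.49, adjusted p = 0.976). It was lower at day 14 than at day 3 by -2.17 (adjusted p = 0.0353), a difference the first probe set put at -0.47 (adjusted p = 0.446 in the same fit). For Notch1 the second probe set gave 0.29 at day 3 (adjusted p = 0.587), against -0.89 for the first, and was lowest in UUO, between 5.76 and 5.85. The second probe set of Jag1 gave -0.29 at day 3 (adjusted p = 0.382), -0.26 at day 7 (adjusted p = 0.476), -0.05 at day 14 (adjusted p = 0.931) and -0.02 in UUO (adjusted p = 0.965). Its UUO arrays, between 4.555 and 5.20, overlapped the uninjured ones, between 4.696 and 5.117. Pearson correlations over 15 arrays with the first probe set were 0.825 and 0.489 for the others of Heyl, 0.52 for Notch3, 0.37 for Notch1 and 0.366 for Jag1. Which probe set of Notch1 or Notch3 reads the transcript better was not tested.

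**Figure D3:**
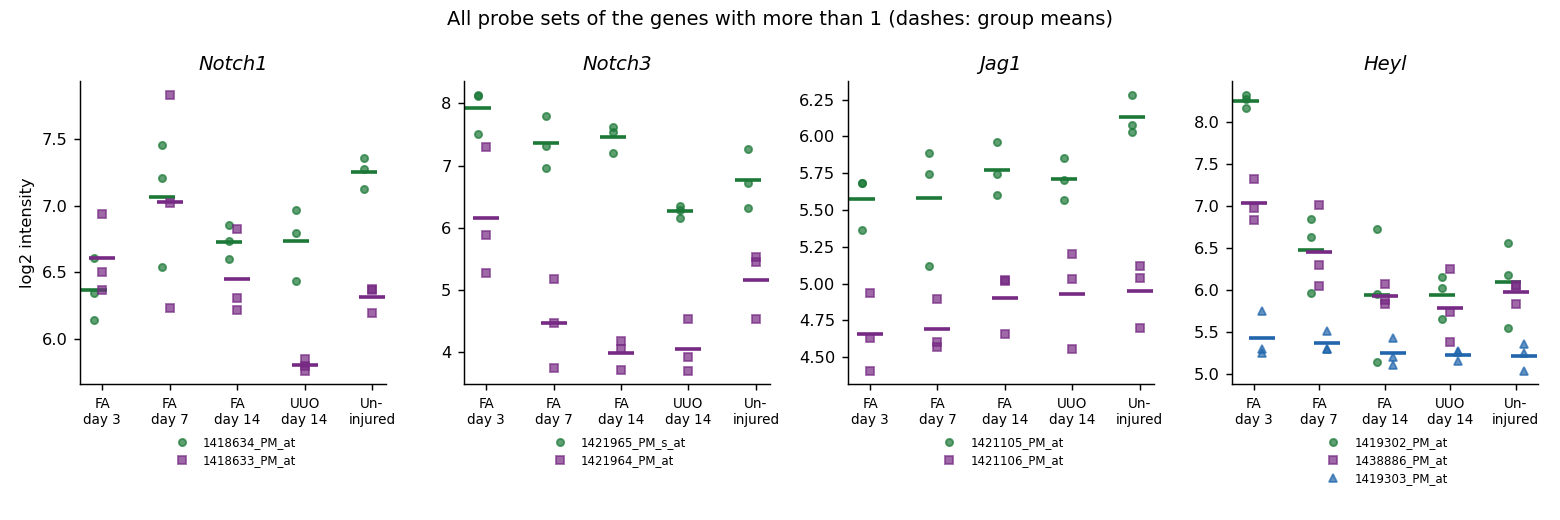
log2 intensity of every probe set of the 4 genes with more than 1, by group in the order FA day 3, day 7 and day 14, UUO day 14 and uninjured, with points for arrays, dashes for group means and 1 symbol per probe set. The first and second probe sets of Heyl are both highest at FA day 3, while the second of Notch1 is lowest in UUO and the second of Notch3 is lower at FA day 14 than at FA day 3.

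Other genes of the pathway were taken from a list of 54, of which 46 were measured and 41 tested. At folic acid day 3 8 of them rose and 1 fell, at day 7 3 rose and 1 fell, at day 14 1 rose and 1 fell, and in UUO 7 rose and 2 fell. The shares called, 22%, 9.76%, 4.88% and 22%, lay near those of all genes tested, 17.0%, 11.7%, 5.67% and 16.6%. With quantile normalization the counts at day 3 were 4 higher and 3 lower, and in UUO 6 higher and 3 lower. That setting ended the calls of Adam10 at day 3, day 7 and in UUO, and those of Mib1, Aph1a and Hdac1 at day 3. The same setting moved the split of all calls at day 3 to 1255 higher and 1204 lower, against 1440 higher and 864 lower on the deposited scale. Median log2 changes of the list were 0.37, 0.19, 0.18 and 0.31 for day 3, day 7, day 14 and UUO, above the all-gene medians of 0.02 or less. With the proximal tubule mean in the model the counts were 3 higher and 0 lower at day 3 and 0 of either in UUO, and with the macrophage mean 4 and 0 at day 3, and 4 and 1 in UUO. Of all 13523 genes tested, the proximal tubule mean left 848 called at day 3 and 260 in UUO. The macrophage mean left 1247 and 1390. Second probe sets ended the calls of Mib1, Adam10, Ncstn, Aph1a, Rbpj, Tle4 and Numb in every comparison where they were called, and that of Dtx4 at day 14. The mean of probe sets ended the calls of Mib1, Adam10, Aph1a, Tle4 and Numb in every comparison where they were called, and those of Ncstn in UUO and of Rbpj at day 3 and in UUO. Between UUO and day 14 none of the 41 passed in limma, and 7 had an unadjusted p under 0.05, as did 17.3% of all genes.

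Genes of the receptor proteases included Adam10, the protease that cuts the receptor outside the cell, and Ncstn and Aph1a, which are subunits of gamma-secretase. Adam10 measured 9.11, 9.49 and 9.18 at day 3, 9.19, 9.43 and 9.82 at day 7, 9.62, 9.26 and 9.18 in UUO and 8.54, 8.16 and 8.59 in uninjured kidney. All 9 of those injured arrays were above the uninjured ones, with log2 changes of 0.83, 1.05 and 0.92 (adjusted p = 0.0233, 0.00999 and 0.0138). With quantile normalization these calls were lost (adjusted p = 0.2, 0.0534 and 0.0692). At day 14, where Adam10 was not called, it measured 8.415, 8.99 and 9.08, the first within the uninjured range. Ncstn was higher by 1.87 at day 3 (adjusted p = 0.0013) and by 1.13 in UUO (adjusted p = 0.0231). Aph1a was higher by 1.65 at day 3 (adjusted p = 0.0341), but its second probe set gave -1.16. Of the 8 protease genes tested, 3 rose at day 3 (37.5%, against 17.0% of all genes called), 1 at day 7 (12.5% against 11.7%), 2 in UUO (25% against 16.6%) and 0 at day 14 (against 5.67%). Without 1 array the day 3 calls of Adam10 (array 2 or 14, adjusted p = 0.0826 or 0.0987) and Aph1a (array 1, 2, 13 or 14, at most 0.137) were lost, and so were the UUO calls of Adam10 (array 10 or 14, at most 0.0639) and Ncstn (array 10, 12, 14 or 15, at most 0.0854).

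Among the nuclear activators Rbpj, which carries the receptor's intracellular domain on DNA, measured 5.74, 6.44 and 6.37 at day 3, 6.10, 6.33 and 6.12 at day 7, 6.53, 6.23 and 6.47 in UUO and 5.24, 5.64 and 5.44 in uninjured kidney. It rose by a log2 change of 0.74 at day 3 (adjusted p = 0.0206), 0.74 at day 7 (adjusted p = 0.0278) and 0.97 in UUO (adjusted p = 0.00471). The corepressor Tle1 rose by 1.23 at day 3 and 1.29 in UUO (adjusted p = 0.0179 and 0.0137), Tle4 by 1.39 in UUO (adjusted p = 0.0194), and the deacetylase Hdac1 by 0.90 at day 3 (adjusted p = 0.0142). Leaving out 1 array ended the day 3 calls of Rbpj (array 2, 3, 13 or 15, at most 0.0785), Tle1 (array 2, 14 or 15, at most 0.0767) and Hdac1 (array 1, 3 or 15, at most 0.0575). It also ended the day 7 call of Rbpj (array 5, 6, 13 or 15, at most 0.0994) and the UUO calls of Tle1 (array 15, 0.0602) and Tle4 (array 12, 14 or 15, at most 0.0797). Of 3 nuclear activators and 7 corepressors tested, 1 and 2 rose at day 3, 1 and 0 at day 7, 0 and 0 at day 14, and 1 and 2 in UUO. Among all genes tested 17.0%, 11.7%, 5.67% and 16.6% were called in these comparisons, where 1 gene of 3 is 33.3% and 2 of 7 are 28.6%. With so few genes these counts are a description.

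Dtx4, an E3 ubiquitin ligase of the Deltex family, measured 8.46, 8.22 and 8.26 at day 3, 7.90, 8.44 and 9.04 at day 7, 8.33, 6.89 and 7.65 at day 14, 8.69, 8.88 and 8.79 in UUO and 6.14, 5.98 and 6.70 in uninjured kidney. No injured array fell within the uninjured range, and the log2 changes were 2.04, 2.19, 1.35 and 2.51 (adjusted p = 0.00168, 0.00152, 0.0391 and 0.000407). The day 14 call was lost without any of 11 arrays, at an adjusted p of up to 0.145, and the day 7 and day 14 changes turned negative with the macrophage mean in the model. That mean did not overlap between these groups and uninjured kidney. With it 5 of all 13523 genes tested were called at day 7 and 2 at day 14, against 1580 and 767. Such a model could hardly call any gene there. With the proximal tubule mean the day 3 and UUO calls of Dtx4 were lost, at log2 changes of 1.71 and 2.04 (adjusted p = 0.065 and 0.127). That model called 848 and 260 of all genes there. Mib1, the ubiquitin ligase that drives ligand endocytosis, rose by 0.94 at day 3 (adjusted p = 0.0481, lost without any of 13 arrays, at most 0.125) and by 1.45 in UUO (adjusted p = 0.00562). Numb, an inhibitor of Notch, fell in UUO by a log2 change of -0.69 (adjusted p = 0.0253), a call lost without array 10, 12, 13 or 15 (at most 0.0958). Dlk1, a non-canonical ligand related to Delta, measured between 4.10 and 4.40 at day 3 and between 4.70 and 5.46 in uninjured kidney. It was lower in all 4 comparisons, by -0.80, -0.93, -0.88 and -0.90 (adjusted p = 0.00935, 0.00615, 0.0144 and 0.0049), the day 14 call being lost without array 9 (adjusted p = 0.0571). With the proximal tubule mean the calls at day 3, day 7 and in UUO were lost, at -0.71, -0.845 and -0.76 (adjusted p = 0.151, 0.0822 and 0.296). With the macrophage mean those at day 3, day 7 and day 14 were lost, at -0.68, -0.425 and -0.42 (adjusted p = 0.0731, 0.906 and 0.864). The day 7 and day 14 calls were also lost in fits of the 2 groups alone (adjusted p = 0.0582 and 0.0999). All 12 injured arrays of Dlk1 lay below the 40th percentile of their array. It therefore passed the filter only through the uninjured arrays, the reference group that all 4 comparisons share. The lowest of these, array 14, measured 4.695 against a 40th percentile of 4.69. The choice of Dlk1 for testing was thus not independent of its differences.

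**Figure D4:**
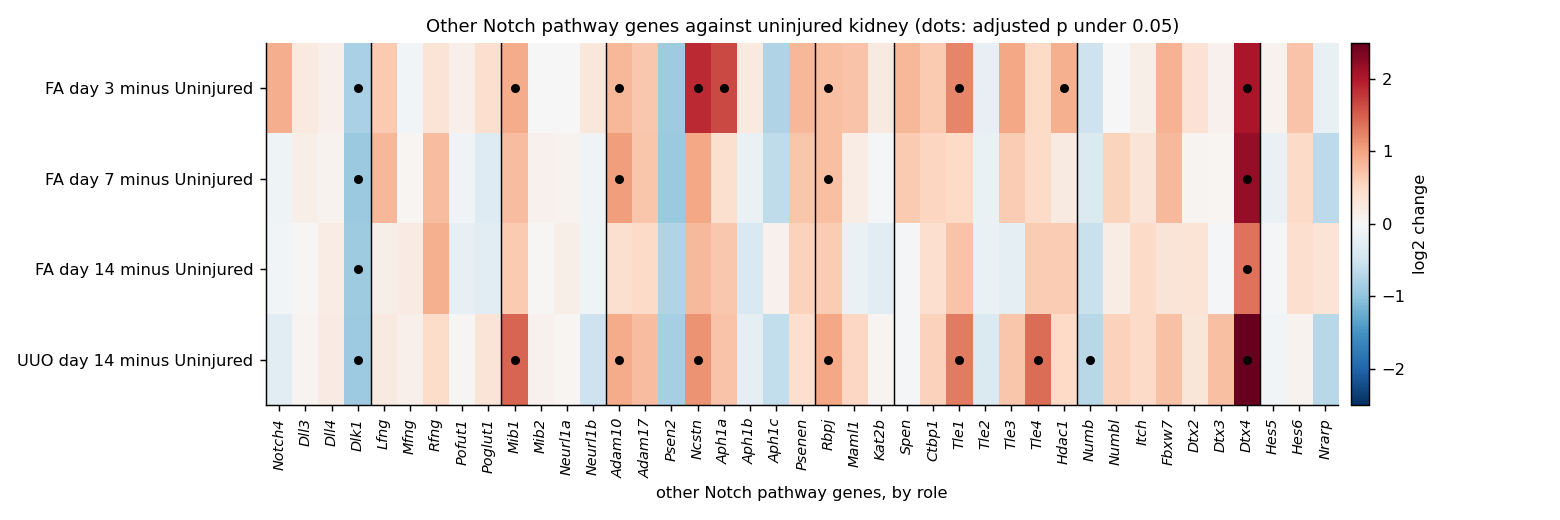
log2 change of other Notch pathway genes (columns, grouped by role, vertical lines between roles) in 4 comparisons with uninjured kidney (rows), red for higher and blue for lower after injury, with a dot where the adjusted p was under 0.05. Dtx4 and Dlk1 have a dot in all 4 rows, and Dlk1 passed the filter on dim genes only through its uninjured arrays.

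Among 5 glycosyltransferases, which modify the receptor and tune its choice of ligand, and 3 other target genes tested (Hes5, Hes6 and Nrarp), none passed against uninjured kidney. Of all genes tested 17.0%, 11.7%, 5.67% and 16.6% passed at day 3, day 7, day 14 and in UUO. At an unadjusted p under 0.05 limma gave 0, 2, 1 and 0 glycosyltransferases and 0, 1, 0 and 1 targets for day 3, day 7, day 14 and UUO. The shares of all genes were 31.1%, 27.1%, 20.4% and 29.8%. With so few genes these counts are a description. Notch4, an endothelial receptor, measured 6.32, 5.97 and 5.39 at day 3 and 5.08, 4.87 and 5.01 in uninjured kidney, a log2 change of 0.91 with an adjusted p of 0.0876.

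Transcripts of other cell types moved with these groups. For 6 pericyte and smooth muscle markers the mean was 7.14 ± 0.14, 6.51 ± 0.21 and 6.92 ± 0.30 on the 3 folic acid days, 6.54 ± 0.25 in UUO and 7.02 ± 0.21 in uninjured kidney (SD, n = 3 each). Of these 6, 1 rose at day 3 (Kcnj8, by 1.49, adjusted p = 0.0217), 1 fell at day 7 (Myh11, by -1.89, adjusted p = 0.0441), 0 were called at day 14 and 1 fell in UUO (Rgs5, by -1.39, adjusted p = 0.0208). The share of 16.7% was near that of all genes at day 3 and in UUO. At day 3 the 6 did not move together: Rgs5 and Myh11 had changes of -0.47 and -1.28 (adjusted p = 0.411 and 0.134), and the median of the 6 was 0.085. In UUO most were lower, with a median of -0.78 against -0.01 for all genes. The means of Rgs5, Des, Mcam and Myh11 lay below the uninjured ones there. Kcnj8 and Cnn1 had changes of 0.35 and 0.68 (adjusted p = 0.603 and 0.208), Cnn1 with 6.03, 4.945 and 4.37 on its arrays. The mean over the 6 markers lay between 6.97 and 7.23 on the day 3 arrays, where Notch3 and Heyl were highest. It lay between 6.31 and 6.81 in UUO and between 6.84 and 7.25 on the uninjured arrays. The part of these markers in the change of Notch3 and Heyl was not tested. Endothelial markers averaged 6.28 ± 0.06, 6.56 ± 0.33 and 6.53 ± 0.20 on the folic acid days, 5.99 ± 0.09 in UUO and 6.44 ± 0.36 in uninjured kidney. Of 9 tested, 2 were higher and 3 lower at day 3, and 2 were lower in UUO. Among all genes tested 10.6% were higher and 6.39% lower at day 3, and 7.52% were lower in UUO. Proximal tubule markers fell in 5 of 10 and distal nephron markers in 7 of 11 at day 3, the comparison in which Notch1 and Dll1 fell. In UUO the counts were 8 of 10 and 11 of 11, beside changes of -0.52 for Notch1 and -0.28 for Dll1. The part of tubule transcript in these changes was not tested. Macrophage markers averaged 6.07 ± 0.21, 8.40 ± 0.57 and 8.14 ± 0.74 on the folic acid days, 5.98 ± 0.10 in UUO and 5.35 ± 0.10 in uninjured kidney, so the day 3 arrays, where Heyl was highest, had less macrophage transcript than the later folic acid arrays. With the proximal tubule mean in the model 0 of the 8 Notch genes were called at day 3, and with the macrophage mean 1 was, Heyl (log2 change 1.60, adjusted p = 0.0135). Of all 13523 genes tested, 848 and 1247 were called at day 3 under these models, against 2304 without a marker mean. Arrays 4, 7 and 8 had the brightest proximal tubule transcripts of the injured arrays. A fit without them left the day 3 log2 changes as they were, 2.16 for Heyl and -0.61 for Dll1. The day 3 comparison holds none of these arrays, so its log2 changes could not move. That fit therefore shows neither how stable they are nor the part of tubule transcript in them.

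**Figure D5:**
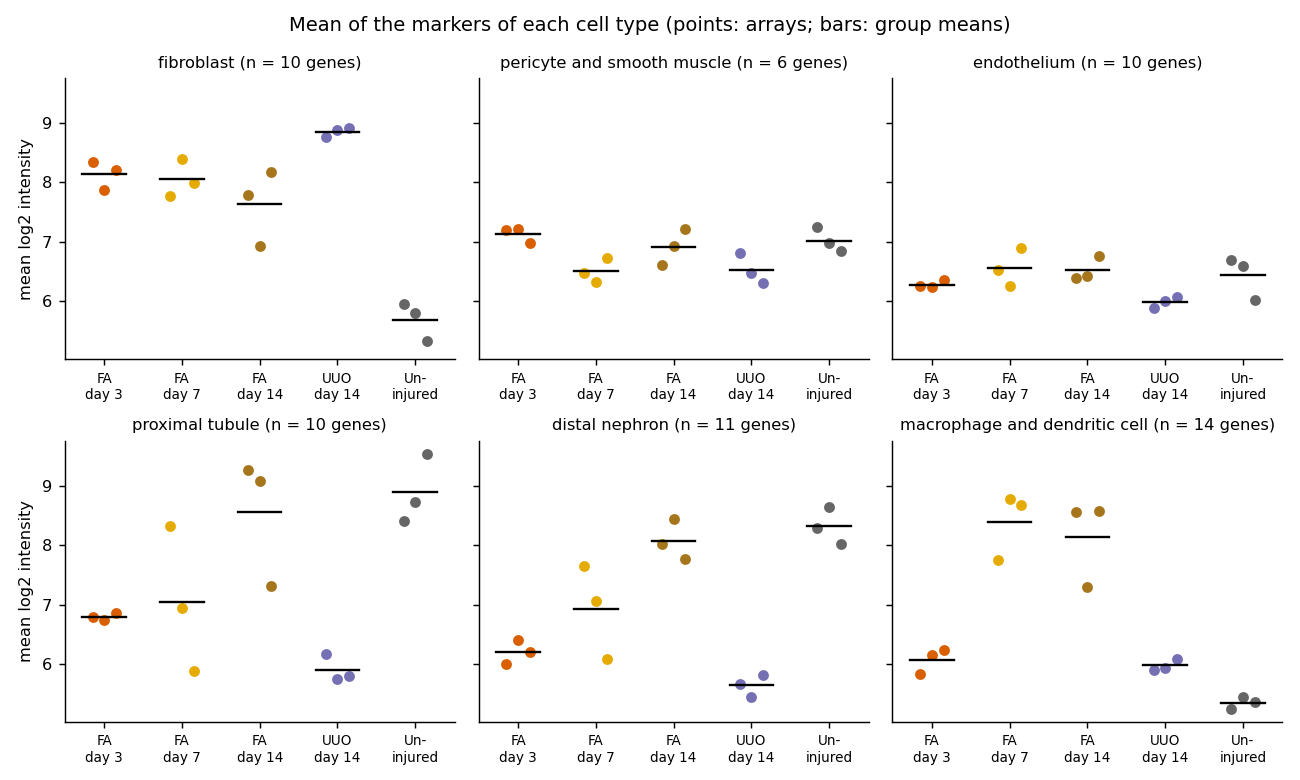
Mean log2 intensity of the markers of 6 cell types on each array (points) with group means (bars), in the order FA day 3, day 7 and day 14, UUO day 14 and uninjured. Fibroblast markers are lowest and tubule markers highest in uninjured kidney, and macrophage markers are highest at FA day 7 and day 14.

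The genes whose values followed each Notch gene most closely over the 15 arrays were found by Pearson correlation among all genes tested, as a description. For Heyl they were Vegfd (0.913), Apoc1 (0.899) and Fkbp5 (0.897), and for Notch3 they were Des (0.859), Pspn (0.838) and Ostf1 (0.832). Des encodes desmin, an intermediate filament of muscle cells and pericytes and 1 of the 6 pericyte markers. It measured 8.22, 7.75 and 8.25 at day 3, 6.97, 7.69 and 7.11 at day 7, 7.64, 7.25 and 7.33 at day 14, 6.19, 6.41 and 6.25 in UUO and 8.16, 7.25 and 6.53 in uninjured kidney. Like Notch3, it was lowest in UUO and among the uninjured arrays highest on array 13. The mean of the 6 pericyte markers had a lower correlation with Notch3, of 0.355, below those of the endothelial (0.405) and macrophage (0.378) means. The closest genes to Notch1 were Mtx3 (0.875), Esam (0.86), an endothelial adhesion protein, and Dlx3 (0.859). Jag1 was followed by Pigo (0.907), Gpr75 (0.883) and Prss51 (0.883), Dll1 by Wdr4 (0.928), Gdf2 (0.911) and Lce3c (0.882), and Notch2 by Il18r1 (0.802), Man2b1 (0.79) and Uchl3 (0.777). Hes1 was followed by Tnnt3 (0.814), Tk1 (0.807) and Thg1l (0.806), and Hey1 by Taf1b (0.876), Foxp2 (0.827) and Mapk12 (0.825). Among the Notch genes themselves Notch1 and Jag1 had a correlation of 0.744, and of 0.882 after the group means were removed.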

How the data were processed

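RNA of sorted cells was amplified and hybridised to 15 arrays. For 45141 probe sets the authors deposited log2 intensities. Per the submitters' processing notes RMA was used, and affy and limma are named there with no version or role. Background signals and detection calls were not used, so folds against dim values are compressed. No label states that arrays come from different animals, so p-values reflect spread among these samples alone, possibly technical, and 3 arrays per group limit the precision.

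Of the probe sets 28898 were annotated to 1 gene, 551 to several and 15692 to none in the annotation used, and 0 columns of values were left out. Genes were tested if they exceeded the 40th percentile on 3 or more arrays. One mean per group was fitted with limma 3.58.1 in R 4.3.3 (10 residual degrees of freedom), for 10 pairs of groups and an F test, 2-sided, with Benjamini-Hochberg adjustment over all genes tested. Intervals are unadjusted. The fit was tested on simulated data. Plots used matplotlib 3.10.9.

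The Notch genes, the lists and the tests were chosen with earlier results of these data known. Beside the Notch genes, up to 3 called genes of each role with the smallest p, the 3 most correlated genes without provisional symbols, and cell type markers were named by rule. Hes5, Hes6, Nrarp and Notch4 were named after their values were seen.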

Additional observations from a re-analysis of the deposited data

Results flagged for a closer look

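The responses of 2 genes differed between injury groups by limma's test of the difference. Heyl was lower at folic acid day 14 than at day 3 by a log2 change of -2.32 (adjusted p = 0.00631), a call lost with the proximal tubule mean in the model (adjusted p = 0.0886) and in a fit of those 2 groups alone (adjusted p = 0.0617). It was lower in UUO than at day 3 by -2.31 (adjusted p = 0.00902). Notch3 was lower in UUO than at folic acid day 14 by -1.19 (adjusted p = 0.0352), a call lost in 6 of 15 fits that left out 1 array and under 6 of 11 other settings, among them the second probe set (0.07, adjusted p = 0.976). It was lower in UUO than at day 3 by -1.66 (adjusted p = 0.00908), which the second probe set put at -2.10 (adjusted p = 0.0633).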

How the results depend on the processing

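No paired analysis was possible because the running numbers 1 to 15 are not shared between groups. At folic acid day 3 the number of Notch genes called against uninjured kidney was 4. It was 1 at an adjusted p under 0.01, 1 with second probe sets, 0 with the proximal tubule mean and 1 with the macrophage mean as covariate, and 2 to 5 on leaving out 1 array, with 2 without array 1 or array 14. Array weights gave 1 at day 7, 2 in UUO and 4 in the F test, in place of 0, 0 and 2. Over all genes tested that setting also called more, 1990, 3471 and 3291, in place of 1580, 2244 and 2070. The day 7 count of Notch genes was 0 to 1 on leaving out 1 array, with 1 without array 4. Signs turned for Notch1 at day 3 (0.293) and Notch3 between UUO and day 14 (0.072) with second probe sets, for Aph1a at day 3 with the mean of probe sets (-0.087) or the second (-1.158), and with the macrophage mean for Rbpj at day 7 (-0.248) and Dtx4 at day 7 (-0.084) and day 14 (-0.729). The cause was not tested. Of 1578 values of 61 single-gene results, 1392 kept direction and side of the threshold or stayed uncalled, 167 lost and 12 gained a call, and 7 reversed. Among the 1392, 23 changed sign without a call. The count over all genes at day 3, 2304, ran from 848 to 3439 over the settings and from 1463 to 2450 on leaving out 1 array, and at day 7, 1580, from 5 to 1990 and from 880 to 1751. At day 14 it was 767, with 2 to 1149 and 350 to 892, and in UUO 2244, with 260 to 3471 and 1495 to 2385. The lowest counts came with a marker mean in the model. In each case that mean did not overlap between the injury group and uninjured kidney, so the model could call few genes. Leaving out arrays 4, 7 and 8 left day 14 with 1 array, assumed to vary like the other groups. Detection calls were not used, so the lowest levels, those of Hes1 and Dlk1, may lie near background.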
